A study of Mus musculus with 2 samples.

Results

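The genes Bdh1, Oxct1 and Acat1 encode the 3 mitochondrial enzymes that take ketone bodies into energy metabolism, and they are described here in mouse gastrocnemius, the large calf muscle. They are 3 of the 55536 genes in the gene tables and were found by symbol in both gene tables and in all transcript tables. The set was chosen by the counts of Bdh1, which was near absent in 1 library, so the difference of these genes between the libraries is what selected them. It is given as a description, with no test. The series holds total RNA of this muscle from females of B6CASTF1/J, an F1 cross of laboratory and castaneus parents, aged 36 days. Its 1 group has 2 libraries, called replicate 2 and replicate 1 after the labels, with 300 ng of RNA as input and synthetic spike-in RNA added to each. No treatment, genotype or other tissue was compared. Sample numbers in the labels differ while the donor entry is shared and names the strain, which leaves unstated whether the libraries came from separate animals, and the spread between them may be partly technical.

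Ketone bodies are small acids, chiefly 3-hydroxybutyrate and acetoacetate, that the liver makes from fatty acids and that muscle, heart and brain burn during fasting and in the suckling period. In the mitochondria of the using tissue, the dehydrogenase made from Bdh1 oxidises 3-hydroxybutyrate to acetoacetate. The CoA transferase made from Oxct1 (also called SCOT) then moves CoA from succinyl-CoA to acetoacetate, and the thiolase made from Acat1 splits acetoacetyl-CoA into acetyl-CoA for the citrate cycle. Acat1 also acts in isoleucine breakdown, and the step of Oxct1 is the one that the liver largely lacks. Skeletal muscle is a mixture of fast fibres, which rely on glycolysis, and slow fibres, which are rich in mitochondria.

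Promoter sequence is shown first because Bdh1 is annotated with several starts and its counts fell unequally among them. Of the 3 genes, 2 matched the RefSeq promoter table (build GRCm38.p6), Bdh1 with a window at each of 2 starts and Oxct1 with 1. Each window runs 5′ to 3′ on the plus strand from 250 bases before the start to 50 bases after it. Capitals mark a match to any of 8 motifs searched. The upstream Bdh1 window is chr16:31422047-31422346, the downstream Bdh1 window chr16:31428503-31428802 and the Oxct1 window chr15:4026178-4026477.
Bdh1 upstream: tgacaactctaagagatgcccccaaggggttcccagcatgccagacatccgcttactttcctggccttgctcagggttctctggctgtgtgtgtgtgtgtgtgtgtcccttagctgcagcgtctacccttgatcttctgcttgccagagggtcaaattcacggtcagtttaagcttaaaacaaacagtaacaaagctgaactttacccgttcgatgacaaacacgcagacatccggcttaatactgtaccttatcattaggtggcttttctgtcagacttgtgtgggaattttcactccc
Bdh1 downstream: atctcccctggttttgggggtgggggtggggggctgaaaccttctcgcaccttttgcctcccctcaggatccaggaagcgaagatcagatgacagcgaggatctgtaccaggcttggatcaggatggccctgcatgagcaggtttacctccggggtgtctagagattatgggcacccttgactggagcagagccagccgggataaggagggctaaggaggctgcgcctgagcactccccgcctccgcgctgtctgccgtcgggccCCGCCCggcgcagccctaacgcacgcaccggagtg
Oxct1: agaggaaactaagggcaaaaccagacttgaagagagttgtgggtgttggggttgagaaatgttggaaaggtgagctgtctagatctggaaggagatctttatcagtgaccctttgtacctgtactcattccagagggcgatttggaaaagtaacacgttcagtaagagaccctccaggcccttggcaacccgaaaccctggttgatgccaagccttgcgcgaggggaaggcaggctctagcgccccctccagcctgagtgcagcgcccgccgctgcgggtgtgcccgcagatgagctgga

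The downstream Bdh1 window was the richest of the 3 in G and C, at 63.7%, against 55.3% for Oxct1 and 48.3% for the upstream Bdh1 window. It held 17 CpG dinucleotides, where Oxct1 had 11 and the upstream Bdh1 window 7. Over all 32851 promoter windows of the same length the median was 7 CpG (quartiles 3 and 20) and a GC content of 52.7%. A window with fewer CpG was found in 68.6% of the table for the downstream Bdh1 start, in 58.6% for Oxct1 and in 47.9% for the upstream Bdh1 start. The motifs were searched on both strands. The downstream Bdh1 window held 1 match, a GC box (GGGCGG, read as CCGCCC on the printed strand) whose first base lies 15 bases after the start. A GC box was present in 35.7% of all windows. None of the 3 windows matched the TATA box (TATAAA, in 13.6% of all windows), the CCAAT box (CCAAT, 37.4%), the MEF2 site (3.69%), the muscle E-box (CAGCTG, 16.3%) or the NRF1 site (4.60%). The same holds for the estrogen-related receptor element (TNAAGGTCA, 1.28%) and for the shorter nuclear receptor element inside it (AGGTCA, 16.3%). These matches describe letters in short windows and say nothing of whether a factor binds.

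Bdh1 (ENSMUSG00000046598.15) lies on the plus strand at chr16:31422280-31458901 in mm10 with GENCODE M21. It had 727 estimated counts in replicate 2 against 1 in replicate 1. On the TPM scale, a share of all transcripts that corrects for their length, its level was 16.75 TPM in replicate 2 against 0.05 TPM in replicate 1, a mean of 8.40 ± 11.8 TPM (SD, n = 2). The gene was thus plainly detected in one library and rested on a single count in the other, for which an exact Poisson interval is 0.0253 to 5.57 counts. With counts scaled by TMM, which assumes that most genes did not change, replicate 2 was 696-fold higher than replicate 1, with an exact 95% counting interval of 124 to 27515. The interval covers counting error between these libraries only, and treats each read as an independent molecule, which was not checked.

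A second quantification, made by the authors directly from the reads, also had Bdh1 in one library and almost none in the other. It gave 698 counts in replicate 2 against 2.0 in replicate 1, a ratio of 336 (interval 92.8 to 2783), and levels of 17.6 TPM in replicate 2 against 0.0860 TPM in replicate 1. The log2 ratio from the gene table was 8.86 with a prior count of 0.5, which the fold ratios do not use. Its size depends on that prior count because replicate 1 holds 1 count. Ranked by TPM among all genes, Bdh1 was at position 2869 in replicate 2 against 18509 in replicate 1.

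Oxct1 (ENSMUSG00000022186.14, plus strand, chr15:4026383-4155344) was the highest of the 3 genes. It had 9504 counts in replicate 2 against 5605 in replicate 1, at 130.51 TPM in replicate 2 against 76.97 TPM in replicate 1, a mean of 103.74 ± 37.9 TPM (SD, n = 2). Its scaled count was 1.62-fold higher in replicate 2 (counting interval 1.57 to 1.68), a log2 ratio of 0.70. The reads-based table gave a ratio of 1.64, from 10557 counts in replicate 2 against 6221 in replicate 1. Oxct1 was thus abundant in both libraries, at TPM position 450 in replicate 2 against 678 in replicate 1.

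Acat1 (ENSMUSG00000032047.5, minus strand, chr9:53580522-53610382) stood between the other members. It had 4981 counts in replicate 2 against 2591 in replicate 1, at 47.85 TPM in replicate 2 against 25.79 TPM in replicate 1, a mean of 36.82 ± 15.6 TPM (SD, n = 2). Its scaled count was 1.84-fold higher in replicate 2 (counting interval 1.75 to 1.93), a log2 ratio of 0.88. The reads-based ratio was 1.81. The order of levels, Oxct1 over Acat1 over Bdh1, held in both libraries, and the ranges of genes adjacent in that order did not overlap.

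**Figure D1:**
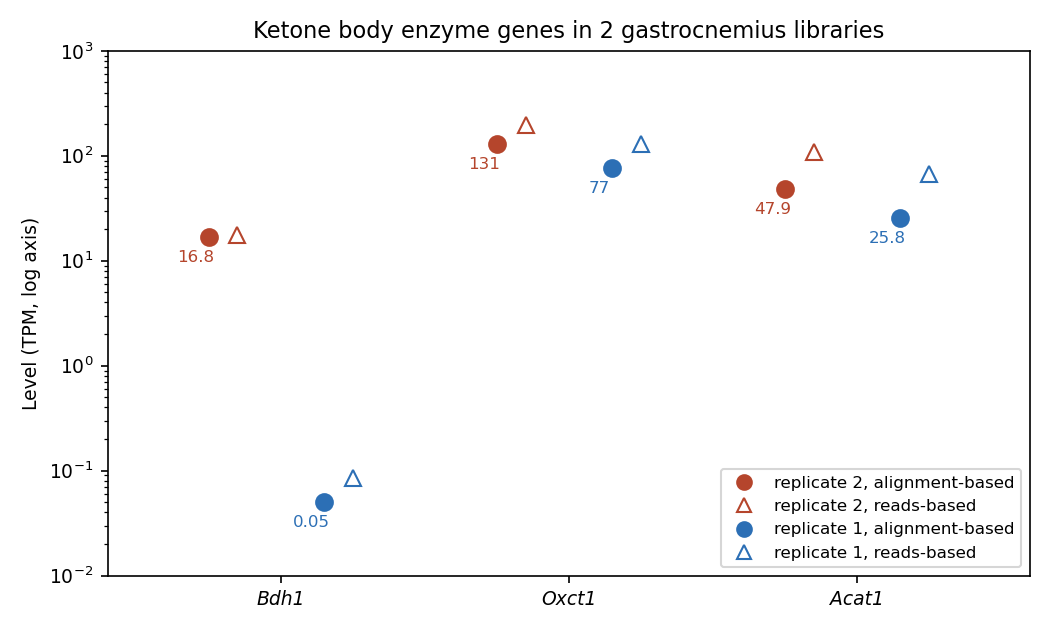
Level of each gene in TPM on a log axis, replicate 2 left of replicate 1, with filled circles for the alignment-based gene table and open triangles for the reads-based table. Bdh1 is at 16.75 TPM in replicate 2 against 0.05 TPM in replicate 1, while the circles of Oxct1 and Acat1 differ by less than 2-fold between the libraries.

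The balance of the last 2 enzymes was nearly the same in both libraries, while that of Bdh1 to either was not. Oxct1 was 2.73 times Acat1 in TPM in replicate 2 against 2.98 times in replicate 1, and by reads 1.81 times in replicate 2 against 1.90 times in replicate 1. Oxct1 was 7.79 times Bdh1 in replicate 2 against 1539 times in replicate 1, the second resting on the single Bdh1 count. The reads-based tables gave 11.0 times in replicate 2 against 1488 times in replicate 1. Of the summed TPM of the 3 genes, Bdh1 made 8.58% in replicate 2 against 0.0486% in replicate 1, Oxct1 66.9% in replicate 2 against 74.9% in replicate 1, and Acat1 24.5% in replicate 2 against 25.1% in replicate 1. In bulk tissue, fewer cells of a type and less RNA per cell cannot be told apart.

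Among the 9996 genes whose mean count reached 100, 1 of the 3 members was over 2-fold apart between the libraries, where 3.31% of all genes were. In the direction of that gene, over 2-fold higher in replicate 2, the share of all genes was 2.1%, and over 2-fold higher in replicate 1 it was 1.21%. All 3 members were higher in replicate 2 by any amount, as were 48.8% of all genes. The median log2 ratio was -0.01 over all genes and 0.88 over the members. A higher ratio than that of Bdh1 was found in 8 genes, than that of Acat1 in 267 (2.67%) and than that of Oxct1 in 426 (4.26%). Since this contrast chose the members, nothing is read from these shares. Scaling to the spike-in total moved the median log2 ratio of all genes to 0.38, and under it all 3 members were over 2-fold higher in replicate 2, at 9.24 for Bdh1, 1.27 for Acat1 and 1.08 for Oxct1 on the log2 scale, where 5.19% of all genes were.

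**Figure D2:**
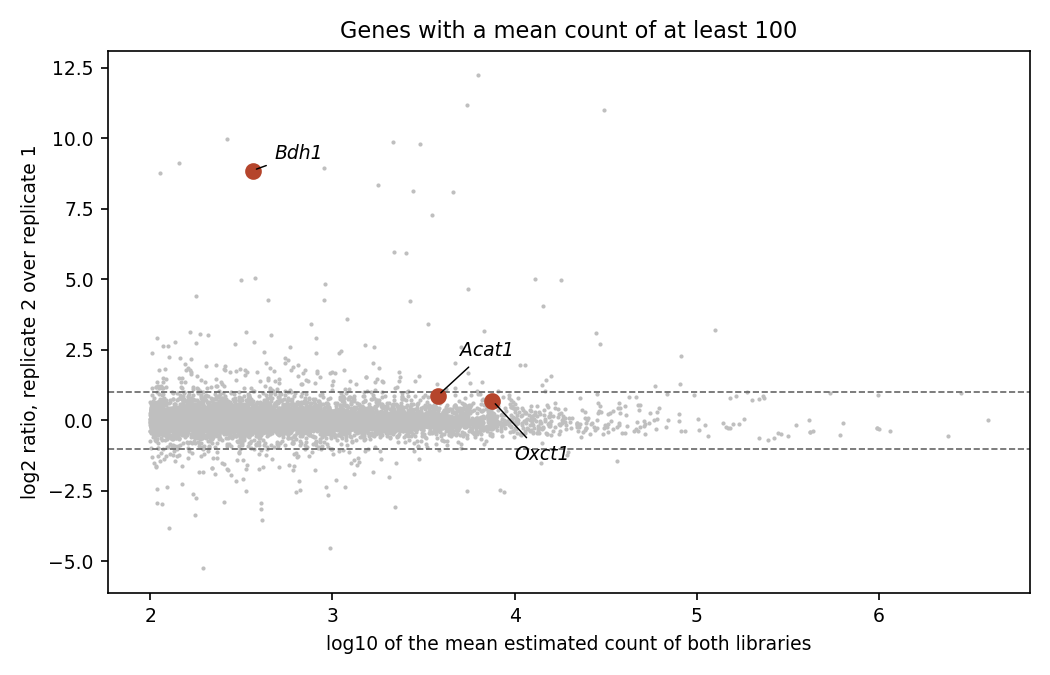
Log2 ratio of replicate 2 over replicate 1 against the log10 of the mean estimated count, 1 point for each of 9996 genes, with the 3 members in red and dashed lines at 2-fold. Bdh1 stands at 8.86, above all but 8 genes, and Acat1 at 0.88 and Oxct1 at 0.70 lie inside the upper line.

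The transcript tables divide the counts of Bdh1 among its annotated starts. GENCODE M21 lists 7 transcripts, 5 of them with a coding sequence, from 5 groups of starts. Bdh1-201, which begins at the gene's annotated start inside the upstream window shown above, had 0 counts in both libraries in both tables, and its posterior SD was 15.7 counts in replicate 2. Bdh1-203, Bdh1-205 and Bdh1-207 begin 6468 to 6512 bases further on, at the downstream window. They held 516.5 counts in replicate 2 against 0 in replicate 1, or 71.0% of the counts of Bdh1 in replicate 2. The reads-based table gave this start group 378 counts in replicate 2, or 54.2%, and 0 in replicate 1.

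The next start, that of Bdh1-202, lies 7019 bases from the gene's start and took 128 counts in replicate 2 against 0 in replicate 1. By reads it took 275 counts in replicate 2 against 1.69 in replicate 1, or 39.4% of the gene in replicate 2. The tables thus agree that the annotated upstream start carried no count, and divide the rest differently between these 2 neighbouring starts. Bdh1-206, which begins 13811 bases in, had 56.4 counts in replicate 2 and the single count of replicate 1. The short non-coding Bdh1-204, near the 3′ end, had 26.1 counts in replicate 2 against 0 in replicate 1.

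Bdh1-203 held the most counts, 412 in replicate 2 with a posterior SD of 46.6, and 345 by reads. By TPM the leading Bdh1 transcript was instead the short retained-intron form Bdh1-205, at 30.0% of the gene in replicate 2 from only 55 counts, and the reads-based table gave it 0. Transcripts with a coding sequence made 88.8% of Bdh1 counts in replicate 2 by alignment and 98.9% by reads. Of the gene's TPM in replicate 2 they made 59.9% by alignment and 93.4% by reads. They include Bdh1-207, annotated as a target of nonsense-mediated decay, with 49.2 counts in replicate 2 by alignment. Bdh1-203 and Bdh1-206 begin their coding sequence in different exons, so the annotated proteins would start differently. The coding parts of these exons, in mm10 with GENCODE M21 on the plus strand, are printed with the start codon in capitals. They lie at chr16:31438035-31438117 for Bdh1-203 and chr16:31436102-31436166 for Bdh1-206.
Bdh1-203 coding start: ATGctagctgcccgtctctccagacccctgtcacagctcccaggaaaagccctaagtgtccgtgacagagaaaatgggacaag
Bdh1-206 coding start: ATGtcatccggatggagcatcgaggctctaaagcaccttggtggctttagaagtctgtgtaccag

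**Figure D3:**
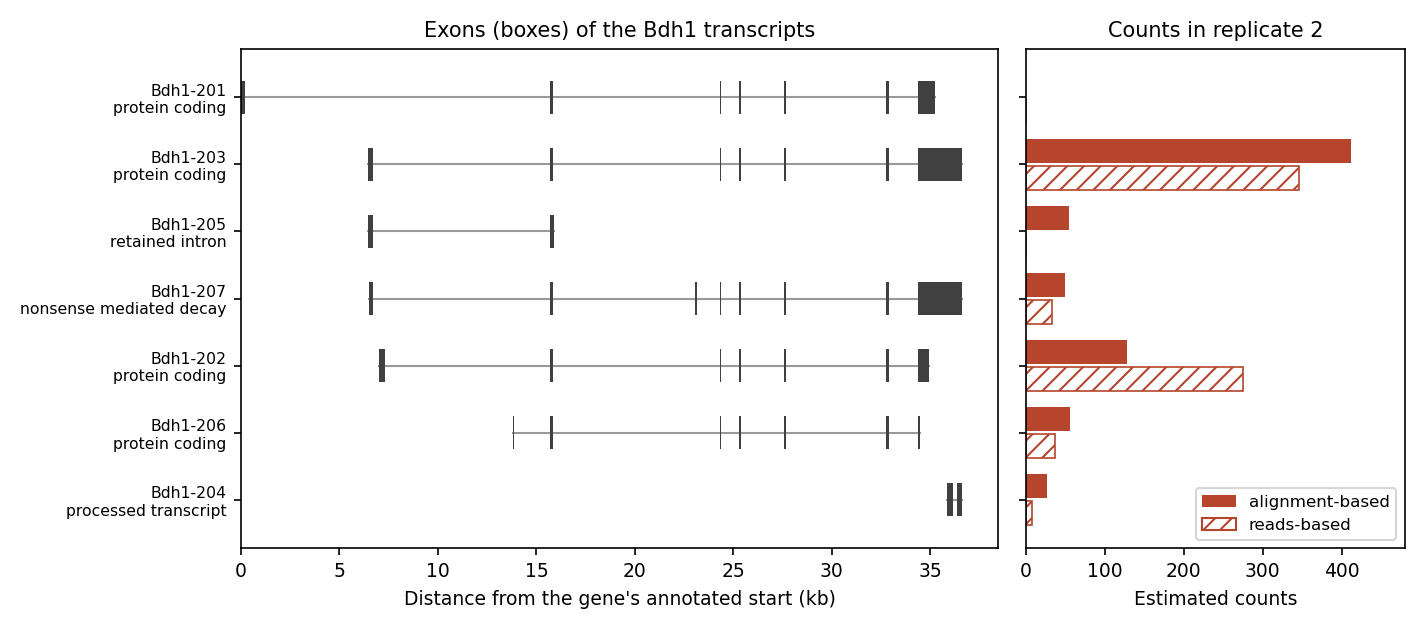
Exons of the 7 Bdh1 transcripts by distance from the gene's annotated start in kb (left), and their estimated counts in replicate 2 (right), solid for the alignment-based and hatched for the reads-based table. Bdh1-201 has 0 counts and Bdh1-203 the most, 412 and 345, while the tables differ on Bdh1-202 and Bdh1-205.

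Oxct1 and Acat1 were each made mainly of 1 coding transcript in both libraries. Oxct1-201 held 8659 counts in replicate 2 against 5168 in replicate 1, which is 91.1% of the gene's counts in replicate 2 against 92.2% in replicate 1. By reads its share was 92.0% in replicate 2 against 91.9% in replicate 1. The short non-coding Oxct1-203 had 482 counts in replicate 2 against 296 in replicate 1, while Oxct1-202 had 327 counts in replicate 2 against 131 in replicate 1 by alignment but 0 in both by reads. The second coding form, Oxct1-205, had 36.2 counts in replicate 2 against 10.4 in replicate 1.

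Acat1-201 held 4967 counts in replicate 2 against 2589 in replicate 1, or 99.7% of the gene's counts in replicate 2 against 99.9% in replicate 1. The reads-based table moved some reads to the short non-coding Acat1-203, with 236 counts in replicate 2 against 142 in replicate 1. Because that transcript is short, it then made 46.4% of the gene's TPM in replicate 2 against 49.0% in replicate 1. The gene's TPM therefore differs by table more than its counts do. By reads it was 107 TPM in replicate 2 against 67.2 TPM in replicate 1.

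The posterior SD of the gene count was 0 for all 3 members in both libraries. Acat1-201 shares none of its 3375 distinct 31-base words with a transcript of another gene. Bdh1-203 shares 8 of 3084 words on the same strand, with Cog7 and Stx11, and 210 (6.81%) with the opposite strand of Gm15743. Oxct1-201 shares 0 of 3497 on the same strand and 438 (12.5%) with the opposite strand of BC037032. Whether counting used strand is not stated in the sources used here, and without strand the reads of a gene and its antisense partner cannot be told apart.

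Of the genes beside or overlapping the members, the antisense gene that overlaps Bdh1 was also absent from replicate 1. Gm15743, on the minus strand at chr16:31427876-31429776 across the downstream starts of Bdh1, had 25 counts in replicate 2 against 0 in replicate 1. Against a floor of 3 counts set for replicate 1, its scaled ratio was 7.97. That value takes the 25 counts as exact and is not a lower limit of the difference. The protein-coding neighbours were Apod, a lipid carrier, with 184 counts in replicate 2 against 465 in replicate 1 (log2 ratio -1.40), and Dlg1, a scaffold protein, with 1894 in replicate 2 against 2094 in replicate 1 (log2 ratio -0.21). Beside Oxct1, AW549877 had a log2 ratio of 0.34, Plcxd3 had 4 counts in replicate 2 against 0 in replicate 1, and BC037032, which overlaps its start on the opposite strand, had 77 counts in replicate 2 against 56 in replicate 1. Cul5, a ubiquitin ligase scaffold 4199 bases from Acat1, had a log2 ratio of -0.11, and Npat on its other side 0.23.

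The rest of the pathway was covered by lists chosen with earlier results of these data known, so their counts are descriptions. Genes other than the members that handle ketone bodies or acetate numbered 6, of which 3 passed the minimum mean count of 100, 2 over 2-fold higher in replicate 2 and 1 over 2-fold higher in replicate 1. Of these, the pair higher in replicate 2 activate acetate rather than acetoacetate. Acss1, the mitochondrial acetyl-CoA synthetase, had 10.37 TPM in replicate 2 against 3.07 TPM in replicate 1 (log2 ratio 1.78), and Acss2, its cytosolic relative, 13.14 TPM in replicate 2 against 5.43 TPM in replicate 1 (1.29). Aacs, which activates acetoacetate for lipid synthesis in the cytosol, went the other way at 1.49 TPM in replicate 2 against 2.08 TPM in replicate 1 (-1.22), and was within 2-fold under spike-in scaling. Bdh2, the cytosolic dehydrogenase named for the same reaction as Bdh1, had 1.53 TPM in replicate 2 against 1.38 TPM in replicate 1. Oxct2a, a testis relative of Oxct1, had 5 counts in each library, and Oxct2b had 0 in both. Bdh2 therefore did not match the level of Bdh1 in replicate 2, nor did Oxct2a or Oxct2b that of Oxct1. Other relatives of these enzymes were not compared with them.

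Among 7 other thiolases, 4 passed the minimum, and all 4 were higher in replicate 2. Acaa2, the mitochondrial thiolase of fatty acid oxidation, was over 2-fold apart at 109.86 TPM in replicate 2 against 42.12 TPM in replicate 1 (log2 ratio 1.39). Hadhb, the thiolase subunit of the trifunctional protein, had 157.35 TPM in replicate 2 against 95.05 TPM in replicate 1 (0.90), and was over 2-fold higher in replicate 2 under spike-in scaling. Of the peroxisomal thiolases, those past the minimum were nearly even, with Scp2 at 56.88 TPM in replicate 2 against 55.52 TPM in replicate 1. Acaa1b, below the minimum, was lower in replicate 2, with 5.95 counts in replicate 2 against 18.16 in replicate 1. Acat3 had under 2 counts in each library. Acat2, the cytosolic relative of Acat1, was low at 1.37 TPM in replicate 2 against 1.74 TPM in replicate 1.

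Transport genes were mixed, with 8 of 10 past the minimum, 5 higher in replicate 2 and 1 of those over 2-fold. That gene was Slc16a1 (MCT1), which carries ketone bodies and lactate into cells, at 10.77 TPM in replicate 2 against 3.39 TPM in replicate 1, a scaled ratio of 3.21 (interval 2.89 to 3.58). Slc16a3 (MCT4), the lactate exporter of fast fibres, was far more abundant and lower in replicate 2, with 143 TPM in replicate 2 against 201 TPM in replicate 1 (log2 ratio -0.46). The pyruvate carrier subunits Mpc1 and Mpc2 had log2 ratios of 0.71 and 0.54. Bsg, the membrane partner of MCT1 and MCT4, stood at -0.30, and under spike-in scaling 7 of the 8 genes were higher in replicate 2, 3 of them over 2-fold.

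The products of Acat1 and the succinyl-CoA used by Oxct1 belong to the citrate cycle. All 13 genes of that list were higher in replicate 2 and none was over 2-fold apart, with a median log2 ratio of 0.40 beside -0.01 over all genes. Under spike-in scaling 1 was over 2-fold higher in replicate 2, and the median was 0.78 beside 0.38 over all genes. Sdhb, a subunit of succinate dehydrogenase, had the highest ratio at 0.77, close to Oxct1 and Acat1. Sucla2, a subunit of the succinyl-CoA ligase that competes for succinyl-CoA, had the lowest at 0.18, and citrate synthase Cs stood at 0.40. Of 11 genes of branched-chain amino acid breakdown, in part of which Acat1 also acts, 10 were higher in replicate 2, none over 2-fold, with a median of 0.15. By any amount, 48.8% of all genes were higher in replicate 2. The counting intervals of Hsd17b10, Mccc1, Mccc2 and Bcat2, all among the 10, include a ratio of 1.

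Regulators of mitochondrial and fat-burning genes were mostly higher in replicate 2. Of 14 such genes 12 passed the minimum. Of those, 6 were over 2-fold higher in replicate 2 and 0 over 2-fold higher in replicate 1, with a median log2 ratio of 1.04. The 2 below the minimum went the other way. Pparg, just under it, had 66 counts in replicate 2 against 133 in replicate 1, and Hcar2 had 1 in replicate 2 against 9 in replicate 1. Esrrg and Esrrb, estrogen-related receptors that drive oxidative genes, had log2 ratios of 4.26 and 4.41, with Esrrg at 11.93 TPM in replicate 2 against 0.71 TPM in replicate 1. Ppara, the receptor that turns on fatty acid and ketone genes in fasted liver, had 6.48 TPM in replicate 2 against 0.70 TPM in replicate 1 (3.14). The coactivators Ppargc1a and Ppargc1b stood at 1.46 and 1.77 and Perm1, a muscle regulator of oxidative genes, at 1.32. Esrra, Tfam and Nrf1, regulators of mitochondrial genes in most tissues, were within 2-fold, at 0.71, 0.08 and -0.02. Under spike-in scaling the genes of the list over 2-fold higher in replicate 2 numbered 8, with Esrra and Sirt3 (0.77) among them, and the sign of Nrf1 turned.

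**Figure D4:**
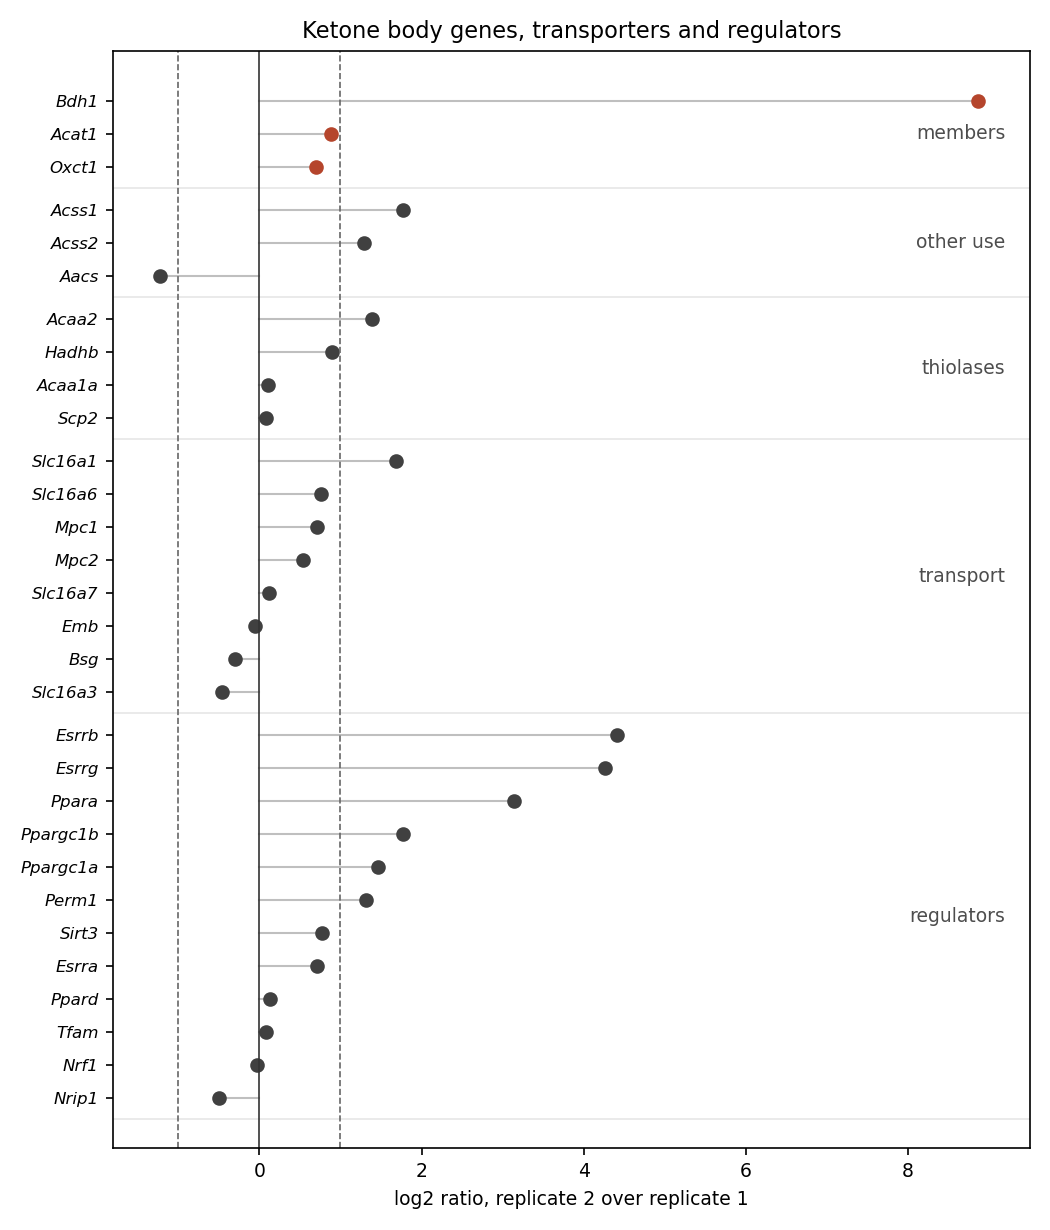
Log2 ratio of replicate 2 over replicate 1 for the members (red) and for the genes of the other use, thiolase, transport and regulator lists that passed a mean count of 100, with dashed lines at 2-fold. Bdh1 at 8.86 lies beyond every gene shown, and Esrrb at 4.41 and Esrrg at 4.26 come next.

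Markers of fibre type and of other cells also differed between the libraries, while fast-fibre genes, which define this muscle, were abundant in both. All 14 slow-fibre genes past the minimum (of 15) were over 2-fold higher in replicate 2, with a median log2 ratio of 7.70 and a summed level of 3368 TPM in replicate 2 against 32.5 TPM in replicate 1. Myh7, the slow myosin heavy chain, had 472 TPM in replicate 2 against 0.24 TPM in replicate 1, and Tnnt1, slow troponin T, 320.69 TPM in replicate 2 against 1.19 TPM in replicate 1. No slow-fibre gene was at 0 in either library. Of 15 fast-fibre genes 13 were lower in replicate 2 (9 of 15 under spike-in scaling), none by over 2-fold, and the summed level was 87758 TPM in replicate 2 against 120150 TPM in replicate 1. The other 2, Myh1 and Myh2, the adult fast myosins other than the fastest, were over 2-fold higher in replicate 2. The part of fibre content in the difference of Bdh1, Oxct1 and Acat1 was not tested, and with 1 library on each side it cannot be told apart from any other difference between them.

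Bdh1 is also high in heart, liver and kidney, so markers of those tissues were read. Of 12 heart muscle markers 1, Myh6, passed the minimum, and it shares reads with Myh7. The list summed to 101 TPM in replicate 2 against 6.21 TPM in replicate 1, and Myh6 alone made 96.6 TPM in replicate 2 against 0.17 TPM in replicate 1. Nppb, Myl7, Nkx2-5 and Gata4 had 0 counts in both libraries, though by reads Gata4 had 1 in replicate 2. Nppa and Mybpc3 each had 1 count in replicate 2 against 0 in replicate 1, and Tnni3 had 5 against 0. Tnnt2 had 39 counts in replicate 2 against 75 in replicate 1, and Myl4 61 in replicate 2 against 72 in replicate 1. Ryr2 had 17 in replicate 2 against 16 in replicate 1, and Tbx5 1 in each. The 6 kidney tubule markers summed to 0.02 TPM in replicate 2 against 0.03 TPM in replicate 1, with Umod, Slc12a1, Slc34a1 and Kap at 0 in both. The 12 hepatocyte markers summed to 8.66 TPM in replicate 2 against 22.9 TPM in replicate 1, and the sum follows Cyp2e1, the 1 gene of the list past the minimum, at 3.99 TPM in replicate 2 against 22.16 TPM in replicate 1. The other 11 summed to 4.67 TPM in replicate 2 against 0.69 TPM in replicate 1, with 10 of the 11 higher in replicate 2 and 0 higher in replicate 1. Among them, albumin (Alb) had 174 counts in replicate 2 against 21 in replicate 1, or 2.91 TPM in replicate 2 against 0.36 TPM in replicate 1. Serpina1a was at 0 TPM in both libraries, and Tat, Cps1, Cyp3a11 and Ttr were at 0 in replicate 1 only.

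Markers of other cells in the muscle went both ways. Fat cell markers summed to 115 TPM in replicate 2 against 371 TPM in replicate 1, with 6 of the 7 past the minimum (of 10) over 2-fold higher in replicate 1. Below the minimum, Cidea went the other way, with 29 counts in replicate 2 against 4 in replicate 1. Retn had 20 counts in replicate 2 against 112 in replicate 1, and Ucp1 was at 0 in both. Red blood cell markers summed to 425 TPM in replicate 2 against 2445 TPM in replicate 1, with all 5 past the minimum (of 7) over 2-fold higher in replicate 1. Nerve markers summed to 37.7 TPM in replicate 2 against 123 TPM in replicate 1, with 5 of the 5 past the minimum (of 6) over 2-fold higher in replicate 1, or 3 under spike-in scaling. Thymocyte and lymphocyte markers summed to 11.7 TPM in replicate 2 against 0.83 TPM in replicate 1, with both genes past the minimum (of 10) over 2-fold higher in replicate 2. The minimum is on the mean of both libraries, and these genes, Rag1 and Ptprc, reach it only through replicate 2. Their direction is therefore partly set by the filter, as it is for genes of the other lists that are high in 1 library only. Of the 10 genes 6 were at 0 in replicate 1, among them Rag1, which had 289 counts in replicate 2. The libraries thus differed in more than fibre genes, and the part of these cells in the difference of the members was not tested.

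Genes nearest to each member were taken by log2 ratio among those with a mean TPM within 2-fold of it, over the same 2 libraries. For Bdh1, among 4187 candidates, they were the pseudogene Rpl7a-ps11, Myom3, Klhl34, Slc25a34 and Esrrg. The count of Rpl7a-ps11 is uncertain, at 226 in replicate 2 against 0 in replicate 1 with a posterior SD of 296 in replicate 2. Myom3, a protein of the M-band of the sarcomere, was then the nearest, at a log2 ratio of 8.34 with 22.51 TPM in replicate 2 against 0.09 TPM in replicate 1. The following genes, Klhl34 at 4.98, Slc25a34, a member of the mitochondrial carrier family, at 4.29 and Esrrg at 4.26, were well short of Bdh1. That gap holds within the limit on level only. Without it, the 14 slow-fibre genes past the minimum had log2 ratios of 2.02 to 12.2. Among them Csrp3, at 8.94, was close to Bdh1, and Myl3 was the highest.

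The genes nearest to Oxct1, among 731 candidates, were Cyc1 (cytochrome c1) at 0.70, Mpc1 at 0.71, the pseudogene Gm10108 at 0.67, the RNA-binding protein gene Qk at 0.72 and the fatty acid transporter Cd36 at 0.73 on the log2 scale. Gm10108 had 0 counts in the reads-based table. The genes nearest to Acat1, among 1870 candidates, were Hsdl2, Slc20a2, Atf5, Dusp1 and Enah, with log2 ratios between 0.85 and 0.90. These were picked for their likeness, which over 2 libraries is 1 number per gene and says nothing of shared function or control.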

How the data were processed

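Total RNA of 2 libraries was quantified by the authors against mm10 with GENCODE M21, per the labels and the identifiers in the deposited files. Which program was used is not given in the sources used here. The gene tables hold expected counts, TPM and FPKM, all as deposited and per the file headers, and the posterior SD of a count, used as a score of assignment per the file headers. The alignment-based transcript tables add, per the file headers, the percent of a gene's TPM in each transcript, and the reads-based tables hold the authors' estimated counts and TPM. TPM was scaled over all rows, spike-ins included. The hybrid's second allele set may align to mm10 less well, which was not tested.

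The gene tables summed to 40656175 expected counts in replicate 2 against 37735687 in replicate 1, of which spike-ins took 194845 in replicate 2 against 243708 in replicate 1. Of 81881 rows, 26248 transfer RNA rows, with 0 counts in replicate 2 against 3 in replicate 1, were left out. Of 55536 genes, 55450 were named from the files and 86 from the annotation. Ratios are replicate 2 over replicate 1, from counts scaled by TMM (edgeR 4.0.16 in R 4.3.3), whose factors were taken from rounded counts. Log2 ratios add a prior count of 0.5 to the counts, without rounding. Fold ratios and their counting intervals use counts rounded to whole numbers and no prior count. Counting intervals are exact (Clopper-Pearson) at 95% and cover counting error only. DESeq2 1.42.0 size factors were an alternative. Other steps used Python 3.11.15, matplotlib 3.10.9, scipy 1.17.1, pandas 2.3.3 and numpy 2.4.6. The ratio step was tested on simulated data.

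With 1 group no condition could be tested and no p-value is given. The members, the 17 gene lists and the alternatives were chosen with earlier results of these data known. The genes named are the members and their transcripts, any gene of the ketone body lists, up to 4 of the highest or most different genes of each other list, the 5 genes nearest to each member and the genes beside it on the chromosome. Further list genes, such as those at 0 counts, were named after their values were seen. Values of some list genes are not reported here.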

Additional observations from a re-analysis of the deposited data

How the results depend on the processing

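Of the 47 alternative values, 15 moved past a limit and 32 did not, with no sign turned. The limits were the SD between the libraries for levels and shares, the counting interval for ratios and 1.5 times for counts, and they are wide for Bdh1. Rescaled over nuclear protein-coding genes alone, mean levels were 20.6 TPM for Bdh1, 245 for Oxct1 and 87.3 for Acat1, and by reads 161 TPM for Oxct1 and 87.3 for Acat1. Leaving out a library gave Bdh1 a level of 0.05 to 16.75 TPM, inside its SD of 11.8 around 8.40. With 2 libraries each value lies within the SD of their mean whatever the data, so leaving out a library could not move a level. Those settings are among the 32 and say nothing of how stable the levels are. Its log2 ratio was 6.81 from TPM with a pseudocount of 0.1, and the Oxct1 ratio was 0.76. Spike-in scaling gave 1.08 for Oxct1 and 1.27 for Acat1. Genes over 2-fold apart numbered 331, but 585 under spike-in scaling (519 higher in replicate 2 and 66 higher in replicate 1, against 210 and 121) and 1162 at a minimum mean count of 10.

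The leading transcript's share of TPM was 29.9% for Bdh1-205, 0 by reads, and 0 to 30.0% when a library was left out. It was 61.5% for Oxct1-201, 57.0% by reads, and 98.1% for Acat1-201, 51.8% by reads. The cause of these moves was not tested. Spike-in and reads-based values of the gene lists were chosen after seeing the data. No paired analysis was possible because both libraries form 1 group. With 1 count in replicate 1, depth limits how large the Bdh1 difference can be shown to be.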
